A study of Mus musculus with 16 samples.

Results

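The late response of retinal microglia to optic nerve crush was described by setting 4 libraries taken 7 days after the injury against 4 libraries of day 0, which are 8 of the 16 libraries of the series. The crush injures the axons of retinal ganglion cells behind the eye. The members were chosen by their labels, and every gene with at least 1 FPKM in at least 4 of the 16 libraries was tested, 14795 of 55385 genes. FPKM counts fragments per length of gene and per total of the library, which allows levels of different genes to be compared. The day 7 libraries came from 16-week-old mice after the crush and the day 0 libraries from 15-week-old mice with no treatment. All mice were of the line Iba1-EGFP, in which the promoter of Iba1 (Aif1) drives the green fluorescent protein, and the fluorescent cells were sorted from retina before their RNA was amplified and sequenced in bulk. Other macrophages use that promoter too, so the gate does not separate them from microglia. Age and day cannot be told apart in this comparison, and the labels do not tie the 4 libraries of a day to separate animals. The p-values therefore reflect the spread among libraries, part of which may be technical. That spread was estimated over all 16 libraries, which were fitted together, and not over the 8 libraries of days 7 and 0 alone. The leading digits of the code in the sample titles divide each day into batch A, replicates 1 and 2, and batch B, replicates 3 and 4, and this batch was a term of the fit. What the digits mark is not stated. No day 7 library shares its full code with a day 0 library, so the full code and the day are linked only through days 2 and 4, and a fit with the full code called 28 genes, 10 of them among the 60 described below.

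Microglia are the resident macrophages of the retina and the brain. In the healthy tissue they carry a set of surface receptors and enzymes often called homeostatic, among them P2ry12, Tmem119 and Cx3cr1. Near dying neurons they can lower these genes and raise others, including the genes of the disease-associated state (Cst7, Clec7a, Cd63), chemokines that draw in other cells, and genes induced by type I interferons, the cytokines of antiviral defence. Interferons act through surface receptors, and the factors these activate bind interferon-stimulated response elements in the promoters of their targets.

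The recovered reads ranged from 9673372 to 14127982 in day 7 libraries and from 9593228 to 13761121 in day 0 libraries. The genes at or over 1 FPKM numbered 9315 to 12509 at day 7 and 9493 to 16522 at day 0 (two-sided exact permutation test, p = 0.714, where 0.0286 is the smallest p that 4 against 4 libraries allow). Of the 10 microglia markers, all were tested, and their summed level was 5092 to 8763 FPKM at day 7 and 3172 to 12611 FPKM at day 0. RNA of other retinal cells was in all 8 libraries. The summed level of 20 rod photoreceptor genes was 5205 to 9387 FPKM at day 7 and 3469.8 to 16773 FPKM at day 0, and that of 15 bipolar cell genes was 144 to 561 FPKM and 116 to 624 FPKM in the same order. Day 0 replicate 1 stood apart with the highest sums of the rod, cone, endothelial and erythrocyte lists, so the number of calls and the list medians are also given without it. In bulk RNA, fewer cells of a type and less RNA per cell cannot be told apart.

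At day 7, 60 genes passed the test, 0.406% of the 14795 tested, with 40 higher (0.27%) and 20 lower (0.135%) than at day 0. The test was limma, fitted to all 16 libraries, with Benjamini-Hochberg adjustment over all tested genes. A gene is said to have risen or fallen where its adjusted p was under 0.05. Among the 40 higher genes were chemokines such as Cxcl13 and Ccl12, interferon-inducible genes such as Ifi27l2a and Ifitm3, and genes of the disease-associated state such as Cst7 and Clec7a, and among the 20 lower genes were Cend1, Fads1 and Lyve1. At an unadjusted p under 0.05 there were 812 higher and 985 lower genes. Over all tested genes the median change was -0.07 on the log2(FPKM + 1) scale and 46.3% of the changes were positive. Changes below are on that scale, on which genes near 0 change by less than their ratio, and a value after ± is the standard error. Of the 60 called genes, 58 had no overlap between the 4 day 7 and the 4 day 0 libraries. Without regard to a test, 372 of all tested genes had every day 7 library above every day 0 library (2.51%) and 370 had every one below (2.5%). All 60 changed in the same direction within batch A and within batch B. For the 58 without overlap this follows from the lack of overlap, so the batches are no separate support. A test of the difference between the batches called 5 of all genes (0.0338%), none of them among the 60, and 1385 genes were under an unadjusted p of 0.05.

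**Figure D1:**
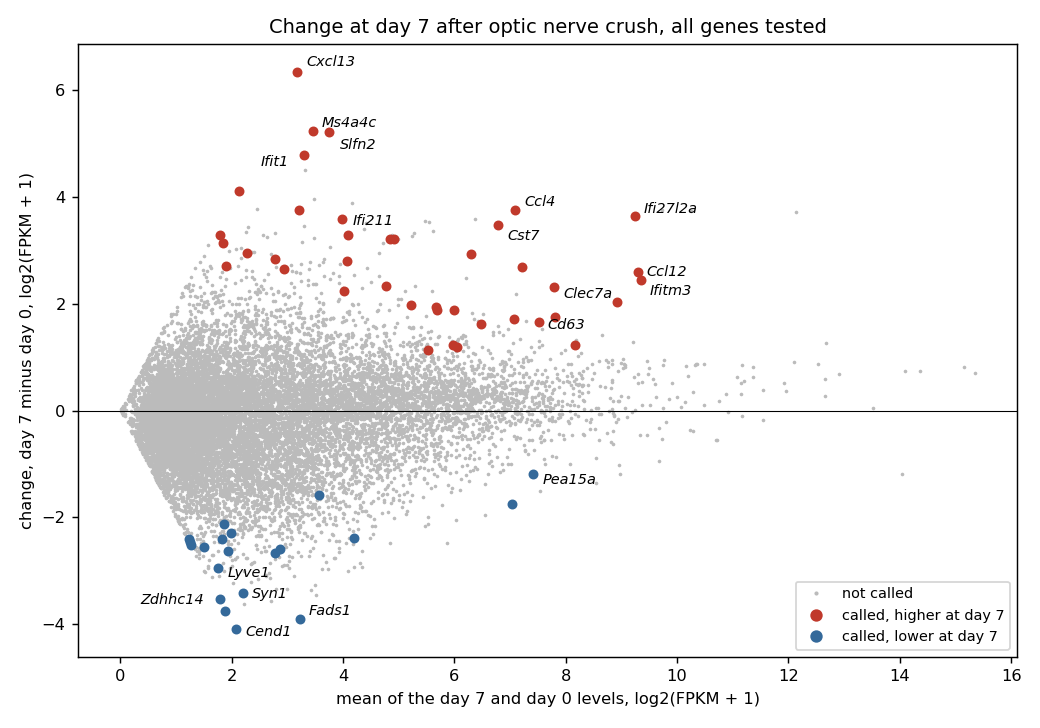
Change at day 7 against day 0 (vertical axis, log2(FPKM + 1)) by the mean of the day 7 and day 0 levels (horizontal axis, same scale) for the 14795 genes tested. Red points are the 40 genes called higher at day 7, blue points the 20 called lower and grey points the rest, and most of the blue points lie at low levels while red points reach levels of Ifi27l2a, Ccl12 and Ifitm3.

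The count depended on single libraries. It was 29, 17, 24 and 16 without day 7 replicates 1, 2, 3 and 4, and 27, 30, 57 and 41 without day 0 replicates 1, 2, 3 and 4. Without day 0 replicate 1, 24 of the 60 genes kept their call. The call of 12 genes held in all 8 of these fits: Cxcl13, Ms4a4c, Slfn2, Ifi27l2a, Ifi211, Ifi204, Ifitm3, Cstb, Cd63 and its copy Cd63-ps among the higher genes, and Cend1 and Zdhhc14 among the lower. A fit of the 8 libraries alone called only Cxcl13 and Ifi27l2a, with 1463 genes under an unadjusted p of 0.05.

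Cxcl13, the chemokine that draws B cells into lymphoid follicles, had the smallest p of all genes. Cxcl13 (ENSMUSG00000023078.6, chromosome 5, 95956951 to 95961068 in GRCm38) was at 96.4, 139, 31.4 and 97.4 FPKM in day 7 replicates 1 to 4 and was listed at 0 in all 4 day 0 libraries. Every day 7 library held the transcript, and no day 0 library did (limma, adjusted p = 0.00177). No fold is given against a group listed at 0. At day 4, Cxcl13 was at 9.14, 12.04, 0 and 0 FPKM, and at day 2 it was listed at 0 in all 4 libraries. Its day 7 level exceeded that of day 4 by 4.58 (limma, adjusted p = 0.00504), and it differed from day 2 as well (adjusted p = 0.00177). The call against day 0 held under the 17 other settings and without any one of the 8 libraries.

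The other chemokines that rose were already high at day 4. Ccl12, a ligand of the receptor CCR2, was at 1089, 1370.1, 1411 and 2668 FPKM in day 7 replicates 1 to 4, against 65.6, 420.4, 350.3 and 432 FPKM in day 0 replicates 1 to 4. Every day 7 library was above every day 0 library, and the rise was 2.59 ± 0.43 (limma, adjusted p = 0.0223). At day 4, Ccl12 had been at 4923, 5119.7, 12112 and 9942 FPKM, and day 7 was lower than day 4 by a change of -2.27 (limma, adjusted p = 0.0169). That difference lost its call after rescaling of the libraries by median-of-ratios (limma, adjusted p = 0.0789). Ccl4, a chemokine that draws in macrophages and T cells, was at 266, 334, 876 and 802 FPKM at day 7 and 41.7, 68.2, 33.2 and 17.5 FPKM at day 0, a rise of 3.76 ± 0.65 (adjusted p = 0.0273), with 2.46 within batch A and 5.06 within batch B. Its neighbour Ccl3, a chemokine of the same kind, was at 206, 155, 202 and 332 FPKM at day 7 and 11.98, 51.99, 63.4 and 13.7 FPKM at day 0, a rise of 2.93 ± 0.6 (adjusted p = 0.0488). Ccl12 lost its call in 2 of the 8 fits with one library left out, Ccl4 in 5 and Ccl3 in 7.

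Among 25 tested cytokine and chemokine genes, these 4 rose and none fell, and 23 had a positive change. The median change of the list was 1.42 (1.47 without day 0 replicate 1), against -0.07 over all genes, and 7 members had every day 7 library above day 0. Cxcl10, an interferon-inducible chemokine for T cells, was at 125, 19.1, 41.7 and 45.5 FPKM at day 7 and at 0, 17.9, 0 and 0 FPKM at day 0, and it missed the threshold (change 4.5, adjusted p = 0.051). Ccl2, the main ligand of CCR2, was at 108, 31.1, 23.2 and 42.6 FPKM at day 7 and 2.75, 15.7, 0 and 0 FPKM at day 0 and missed it too (change 3.96, adjusted p = 0.0678). In both genes all 4 day 7 libraries lay above all of day 0, with the highest day 0 value in replicate 2.

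Several genes that interferons induce rose. They are described in 5 lists, since the families differ in what their proteins do. Of 46 tested antiviral effectors, 3 rose (Ifit1, Ifi27l2a and Ifitm3), none fell, 39 had a positive change and 16 had all 4 day 7 libraries above all of day 0, with a median of 1.28. Of 11 tested genes of the Ifi200 family of DNA sensors, 3 rose and 10 had a positive change, with a median of 1.72. Of 9 tested Schlafen and Phf11 genes, 3 rose, with a median of 1.44. The 27 tested genes of interferon signalling and RNA or DNA sensing had 2 rises and a median of 0.34. None of 11 tested guanylate-binding and immunity-related GTPases, a family best known as induced by interferon gamma, passed the test, and their median was 1.12. Without day 0 replicate 1 the medians were 1.3, 1.37, 1.43, 0.58 and 1.33 in the order of the lists above. No list was tested as a set, and the lists were chosen with results of these data known.

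**Figure D2:**
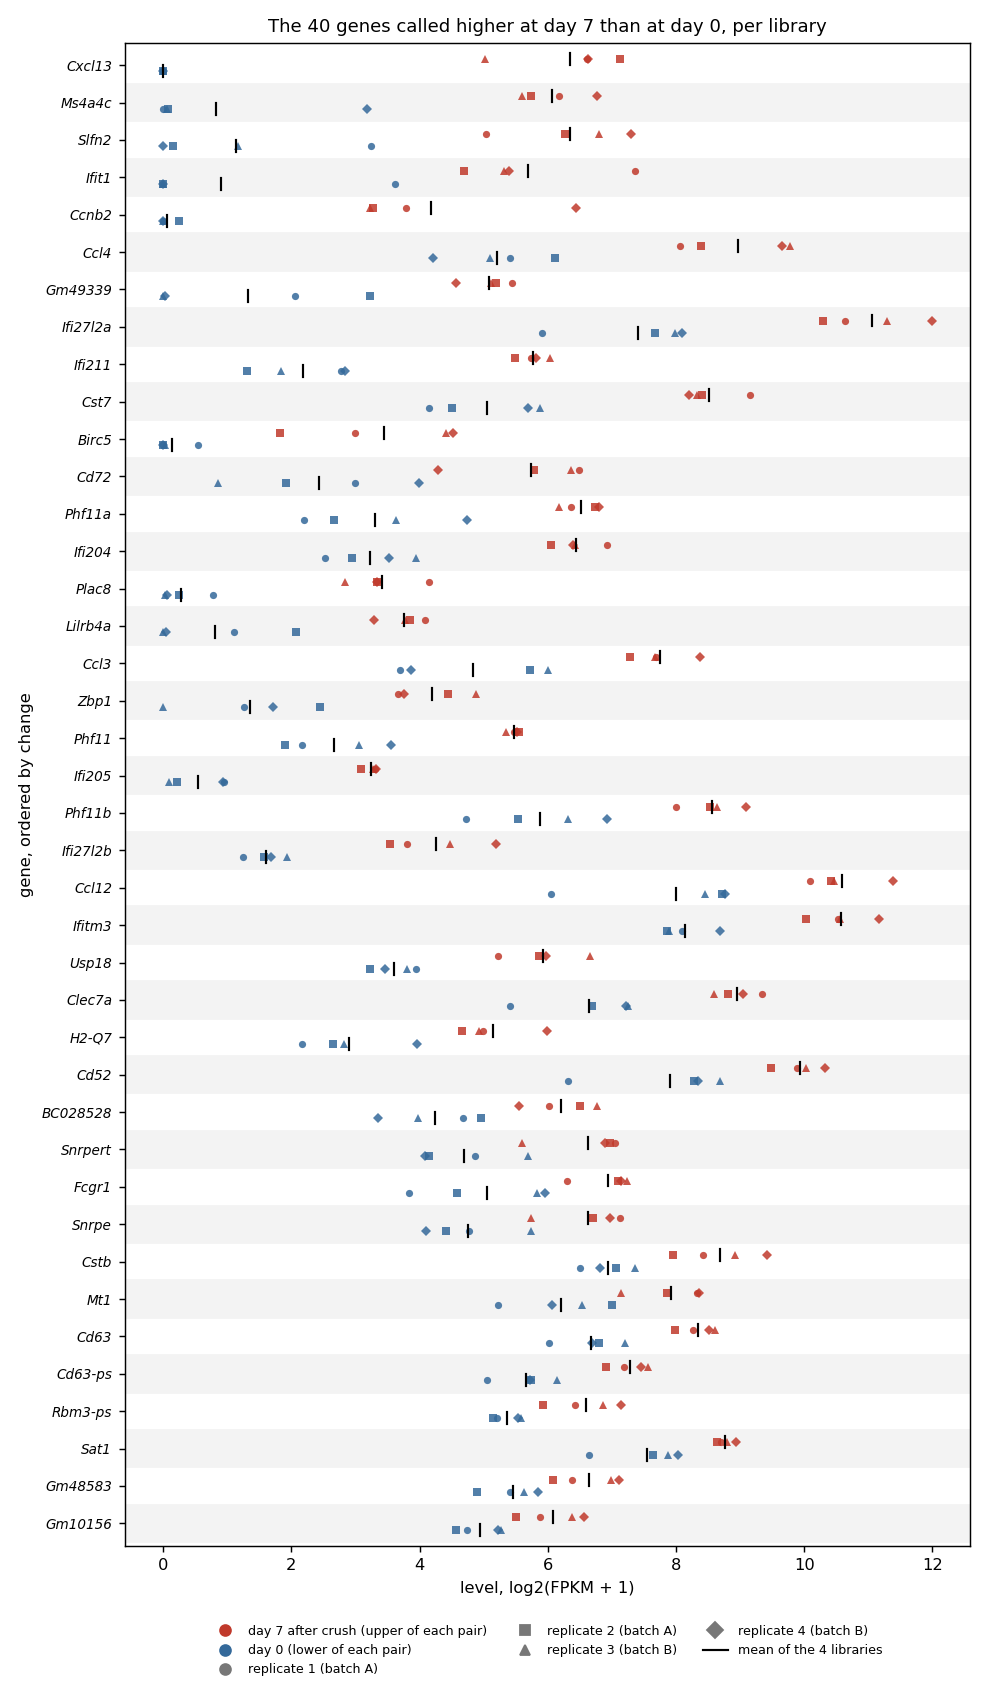
Levels (horizontal axis, log2(FPKM + 1)) of the 40 genes called higher at day 7, in order of their change, for each library. Red symbols above the middle of a row are day 7 and blue symbols below it day 0, shapes are replicates and black bars the mean of 4 libraries, and Snrpe and Snrpert are the only genes in which the groups overlap.

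Ifi27l2a and Ifitm3 were the most abundant of the interferon-inducible rises. Ifi27l2a (chromosome 12, 103442167 to 103443680), a small membrane protein gene that interferons induce, was at 1591, 1259, 2496 and 4080.4 FPKM in day 7 replicates 1 to 4 and 59.3, 203, 252 and 271 FPKM in day 0 replicates 1 to 4. The lowest day 7 library was well above the highest of day 0, and the rise was 3.64 ± 0.49 (limma, adjusted p = 0.00578), with 3.67 within batch A and 3.6 within batch B. Its neighbour Ifi27l2b was at 13.04, 10.6, 21.2 and 35.5 FPKM at day 7 and 1.38, 1.96, 2.81 and 2.23 FPKM at day 0 and rose by 2.64 ± 0.48 (adjusted p = 0.0293). Ifitm3 (chromosome 7, 141009586 to 141010770), which blocks the entry of enveloped viruses from endosomes, was at 1474, 1049, 1507 and 2289.7 FPKM at day 7 and 272, 232, 236 and 411 FPKM at day 0. All day 7 libraries exceeded all of day 0, and the rise was 2.44 ± 0.32 (adjusted p = 0.00517). Ifit1 (chromosome 19, 34640871 to 34650009), which binds viral RNA that lacks a host cap, was at 164, 24.8, 39.04 and 40.9 FPKM at day 7. Its day 0 values were 11.3, 0, 0 and 0 FPKM, so only day 0 replicate 1 held the transcript. Ifit1 rose by 4.79 ± 0.86 (adjusted p = 0.0293), and the call was lost in 6 of the 8 fits with one library left out, those without day 7 replicates 1, 3 and 4 and day 0 replicates 2, 3 and 4.

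The Ifi200 genes sense DNA in the nucleus and cytosol and stand in a cluster on chromosome 1. Ifi211 was at 52.2, 43.9, 64.8 and 55.2 FPKM at day 7 and 5.85, 1.47, 2.57 and 6.11 FPKM at day 0, which was a rise of 3.58 ± 0.46 (limma, adjusted p = 0.00517). Ifi204 was at 120.3, 65.2, 84.9 and 82.7 FPKM at day 7 and 4.75, 6.698, 14.5 and 10.5 FPKM at day 0, a rise of 3.21 ± 0.43 (adjusted p = 0.00517). Ifi205 was lower in level, at 8.85, 7.45, 8.69 and 9.04 FPKM at day 7 and 0.925, 0.161, 0.0606 and 0.9203 FPKM at day 0, and rose by 2.7 ± 0.44 (adjusted p = 0.0223). All 3 genes had day 7 values in a narrow range above day 0. Of the 50-base windows of Ifi211 and Ifi204, 72.9% and 30.2% also occur in another gene of the family, so the reads of these genes may be divided among them. Ifi206 was at 22.7, 20.7, 1.66 and 10.3 FPKM at day 7 and 0, 0.129, 0.342 and 0 FPKM at day 0 and did not pass the test (change 3.33, adjusted p = 0.231).

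Slfn2, a Schlafen family gene that limits the proliferation of immune cells, rose most in that family. It was at 31.9, 76.5, 111 and 156 FPKM in day 7 replicates 1 to 4 and 8.46, 0.118, 1.25 and 0 FPKM in day 0 replicates 1 to 4, which was a rise of 5.21 ± 0.66 (limma, adjusted p = 0.00517). Phf11b was at 255, 368, 398 and 548 FPKM at day 7 and 25.5, 45.2, 78.6 and 119.9 FPKM at day 0 (rise of 2.7 ± 0.45, adjusted p = 0.0243). Phf11a, next to it on chromosome 14, was at 81.7, 106, 71.2 and 110.2 FPKM and 3.59, 5.35, 11.4 and 25.6 FPKM at the same days (rise of 3.21 ± 0.55, adjusted p = 0.0259). The gene Phf11 of the annotation was at 43.6, 46.0, 39.7 and 44.8 FPKM at day 7 and 3.499, 2.73, 7.34 and 10.7 FPKM at day 0 and rose by 2.8 ± 0.5 (adjusted p = 0.0279). These PHD finger genes share 35.2% (Phf11a), 47.05% (Phf11b) and 27.1% (Phf11) of their 50-base windows with another gene, so how the rise divides among them is uncertain. Phf11c was at 4.798, 9.51, 7.15 and 10.3 FPKM at day 7 and 0.773, 1.09, 2.04 and 2.86 FPKM at day 0 and did not pass (change 1.75, adjusted p = 0.127).

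Of the genes of signalling and sensing, Usp18 and Zbp1 rose. Usp18, which removes ISG15 from proteins and dampens the interferon receptor, was at 36.5, 57.1, 100.2 and 61.7 FPKM at day 7 and 14.3, 8.37, 12.98 and 9.96 FPKM at day 0, which was a rise of 2.32 ± 0.45 (limma, adjusted p = 0.0414). It was also higher at day 7 than at day 2, by 3.18 (adjusted p = 0.023). Zbp1, a sensor of Z-form nucleic acids that can start cell death, was at 11.7, 20.9, 28.6 and 12.6 FPKM at day 7 and 1.39, 4.44, 0 and 2.27 FPKM at day 0, a rise of 2.84 ± 0.54 (adjusted p = 0.0369). Usp18 lost its call in 8 and Zbp1 in 7 of the 8 fits with one library left out. Irf7, the factor that amplifies type I interferon genes, was at 97.8, 41.2, 88.95 and 82.9 FPKM at day 7 and 13.7, 19.4, 14.9 and 12.2 FPKM at day 0, and Ifnar2, a subunit of the type I interferon receptor, at 31.6, 37.5, 48.4 and 63.4 FPKM and 10.8, 17.1, 23.5 and 19.1 FPKM. In both, all 4 day 7 libraries lay above all of day 0, and the changes of 2.24 and 1.31 had adjusted p of 0.0781 and 0.0504. Oas1a, which starts the decay of viral RNA, was at 63.4, 54.3, 123 and 44.7 FPKM and 7.705, 13.7, 0 and 11.9 FPKM in the same order, Oas3 at 3.195, 3.25, 9.98 and 17.8 FPKM and 0.988, 0.0278, 0 and 0.00514 FPKM, and Xaf1 at 26.5, 29.8, 27.8 and 34.8 FPKM and 5.703, 0, 8.06 and 6.46 FPKM. The 3 genes did not overlap between the days and had adjusted p of 0.0697, 0.111 and 0.0606.

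The promoters of some of these genes hold the core of the interferon-stimulated response element (ISRE) close to the start of the transcript. The search took the RefSeq window of 250 bases before to 50 bases after the start (GRCm38.p6), for which 24 of the 40 higher and 12 of the 20 lower genes had an entry. The letters searched were GAAA, any 2 bases, GAAA, on both strands. They were in 6 of the 24 higher genes (25%), 0 of the 12 lower genes and 354 of the 8898 tested genes with an entry (3.98%). A gene was counted once if any of its windows held the letters. Counted by window instead, they were in 1131 of all 32851 windows (3.44%). The 6 genes were Ifit1, Ifi211, Ifi205, Phf11a, Phf11b and Ifitm3. The 150 bases before the start are printed for 5 of them, 5′ to 3′ on the strand of the gene, because they show how near the element lies to the start. Capitals mark the ISRE core, read on either strand. Ifit1 is on the plus strand and the others on the minus strand.
Ifit1 (chr19:34640739-34640888): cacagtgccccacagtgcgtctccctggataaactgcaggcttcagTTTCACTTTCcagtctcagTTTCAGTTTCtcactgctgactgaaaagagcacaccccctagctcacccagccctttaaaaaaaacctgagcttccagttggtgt
Ifi211 (chr1:173913047-173913196): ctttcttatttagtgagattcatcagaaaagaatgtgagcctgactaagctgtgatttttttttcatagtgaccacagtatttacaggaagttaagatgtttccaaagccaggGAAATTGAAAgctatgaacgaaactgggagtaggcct
Ifi205 (chr1:174031756-174031905): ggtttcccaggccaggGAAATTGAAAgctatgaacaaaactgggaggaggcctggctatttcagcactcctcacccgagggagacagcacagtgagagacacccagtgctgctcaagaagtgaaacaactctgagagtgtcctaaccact
Phf11a (chr14:59297523-59297672): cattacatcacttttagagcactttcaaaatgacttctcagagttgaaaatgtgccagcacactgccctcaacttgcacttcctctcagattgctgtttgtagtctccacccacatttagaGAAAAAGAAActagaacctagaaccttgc
Phf11b (chr14:59341331-59341480): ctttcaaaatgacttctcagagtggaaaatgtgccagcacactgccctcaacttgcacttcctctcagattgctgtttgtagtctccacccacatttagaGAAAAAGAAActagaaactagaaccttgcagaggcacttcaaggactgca
Ifit1 held 2 cores, 104 and 85 bases before the start. The core of Ifi211 lay 37 bases before its start, that of Ifi205 134 bases before, with a second one 24 bases after, and those of Phf11a and Phf11b 29 and 50 bases before. The letters around the core are alike in Ifi211 and Ifi205, and also in Phf11a and Phf11b, which belong to families of copied genes, so the 5 promoters are not independent cases. Ifitm3 held 2 cores, 3 and 20 bases after the start. Cxcl13, Slfn2, Ms4a4c and Cst7 held none of the letters in their windows, which says nothing of elements elsewhere. The gamma-activated site (TTCNNNGAA, its own reverse complement) was in 2 of the 24 higher genes (8.33%) and 7.86% of all tested genes, the kappa B motif in 3 (12.5%) and 8.22%, and the AP-1 motif TGACTCA in 0 and 4.2%. None of these shares was tested, and a match is a run of letters, not a bound site.

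Genes of the disease-associated state, which microglia raise around dying cells and protein deposits, rose in part. Of 31 tested genes of that list, 5 rose (Cst7, Lilrb4a, Clec7a, Cd52 and Cd63) and none fell, 27 had a positive change, and the median was 1.28, or 1.06 without day 0 replicate 1. Cst7 (chromosome 2, 150570415 to 150578944), an inhibitor of lysosomal cysteine proteases, was at 568, 337, 321 and 294 FPKM in day 7 replicates 1 to 4 and 16.7, 21.8, 57.9 and 50.6 FPKM in day 0 replicates 1 to 4, which was a rise of 3.47 ± 0.65 (limma, adjusted p = 0.0331). Clec7a, the receptor for fungal beta-glucans known as Dectin-1, was at 648, 447, 385 and 529.6 FPKM at day 7 and 41.6, 102, 151 and 148 FPKM at day 0, a rise of 2.31 ± 0.38 (adjusted p = 0.0223). In both genes every day 7 library lay above every day 0 library. Cd63, a tetraspanin of late endosomes and lysosomes, was at 308, 252, 391 and 366 FPKM at day 7 and 63.7, 111, 147 and 102 FPKM at day 0 and rose by 1.67 ± 0.24 (adjusted p = 0.00769). Its processed copy Cd63-ps, with 46.9% of its windows in another gene, rose by 1.62 ± 0.24 (adjusted p = 0.0105) and cannot be told apart from Cd63. Cd63 was also higher at day 7 than at day 2, by 1.57 (adjusted p = 0.023), and so was Clec7a, by 2.17 (adjusted p = 0.0443).

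Cd52, a small surface glycoprotein of leukocytes, was at 949, 715, 1045 and 1280.4 FPKM at day 7 and 78.6, 311, 409 and 326 FPKM at day 0, with the lowest value in day 0 replicate 1, which was a rise of 2.02 ± 0.37 (limma, adjusted p = 0.0298). Lilrb4a, an inhibitory receptor, was at 16.1, 13.5, 12.7 and 8.81 FPKM at day 7 and 1.16, 3.19, 0 and 0.0348 FPKM at day 0 and rose by 2.95 ± 0.55 (adjusted p = 0.0331). The gene model Gm49339, which overlaps Lilrb4a and has 96.2% of its windows in common with it, rose by 3.75 ± 0.69 (adjusted p = 0.0323), so the 2 calls rest on shared reads. Cst7 lost its call in 7 of the 8 fits with one library left out, Clec7a in 3, Cd52 in 5 and Lilrb4a in 7. Other well-known members of the list did not pass. Cd9, a tetraspanin, was at 841, 798, 1266 and 1045 FPKM at day 7 and 286, 432, 737 and 745 FPKM at day 0 (change 0.93, adjusted p = 0.0986). Spp1, which encodes osteopontin, was at 354, 399.7, 229 and 198 FPKM and 32.04, 29.1, 0.0469 and 305 FPKM in the same order, and the groups overlapped because day 0 replicate 4 held the third highest value of the 8 (adjusted p = 0.273). Lgals3, which encodes galectin-3, was at 33.3, 27.5, 20.5 and 0 FPKM at day 7, with replicate 4 listed at 0, and 0.617, 3.76, 0 and 0 FPKM at day 0 (adjusted p = 0.243).

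**Figure D3:**
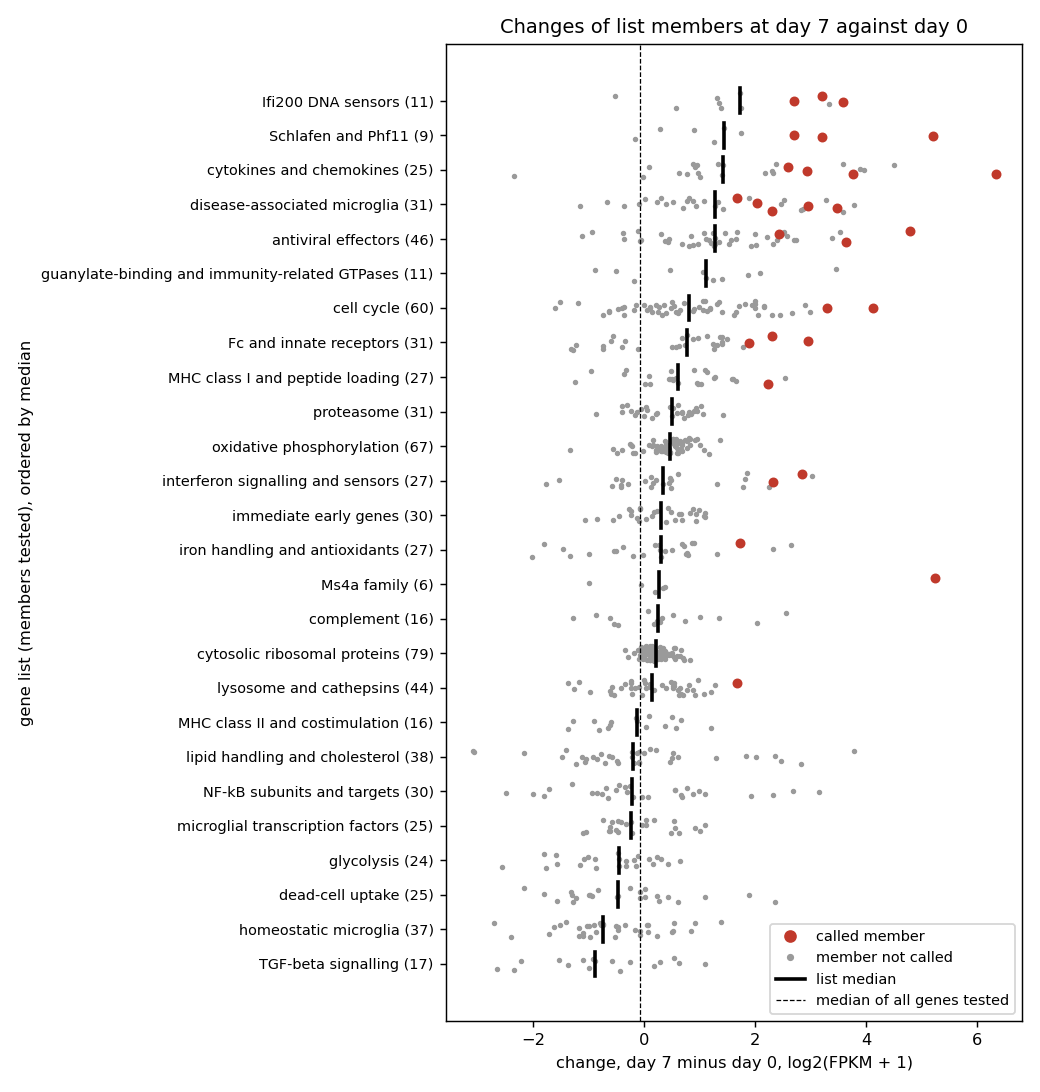
Changes at day 7 against day 0 (horizontal axis, log2(FPKM + 1)) of the tested members of 26 gene lists, one row per list with its number of tested members. Red points are members that passed the test, black bars list medians and the broken line the median of all genes, -0.07; the Ifi200 list has the highest median (1.72) and the TGF-beta list the lowest (-0.89), with no TGF-beta gene called.

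Ms4a4c, a membrane-spanning gene of the Ms4a cluster on chromosome 19, had the second smallest p. It was at 71.1, 52.2, 47.7 and 108 FPKM in day 7 replicates 1 to 4 and 0, 0.0562, 0.0441 and 8.11 FPKM in day 0 replicates 1 to 4, so only day 0 replicate 4 held more than a trace. The rise was 5.24 ± 0.6 (limma, adjusted p = 0.00258), and day 7 also exceeded day 4 by 2.8 (adjusted p = 0.0324). Of 6 tested members of the family it was the only call, and the median of the list was 0.27, which turned to -0.16 without day 0 replicate 1. Of 31 tested Fc and innate receptors, 3 rose, Fcgr1 besides Clec7a and Lilrb4a, and the median was 0.77 (0.79 without day 0 replicate 1). Fcgr1, the high-affinity receptor for IgG, was at 77.6, 135, 151 and 141 FPKM at day 7 and 13.3, 22.9, 56.3 and 61.3 FPKM at day 0 and rose by 1.89 ± 0.36 (adjusted p = 0.0369). The lower-affinity receptors did not pass: Fcgr2b was at 47.6, 59.2, 82.5 and 73.8 FPKM at day 7 and 12.7, 26.97, 34.5 and 57.4 FPKM at day 0 (adjusted p = 0.193). Fcgr4 was at 70.5, 94.3, 83.1 and 70.8 FPKM at day 7 and 8.47, 14.2, 42.2 and 105 FPKM at day 0, where replicate 4 was above every day 7 library (adjusted p = 0.245).

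Genes of class I antigen presentation mostly had positive changes, with a single call. Of 27 tested class I and peptide loading genes, 23 had a positive change, 6 had all day 7 libraries above day 0, and the median was 0.62 (0.72 without day 0 replicate 1). The called gene was H2-Q7, a non-classical class I gene, at 30.6, 24.3, 29.4 and 62.4 FPKM at day 7 and 3.48, 5.29, 6.099995 and 14.5 FPKM at day 0, which was a rise of 2.24 ± 0.44 (limma, adjusted p = 0.0442). It shares 28.5% of its windows with H2-Q10 and other genes of the cluster, and its call was lost in 7 of the 8 fits with one library left out. B2m, the light chain of class I molecules, was at 9994, 8219, 9606 and 13750.4 FPKM at day 7 and 1586, 3894, 6985 and 7439.5 FPKM at day 0, without overlap (change 1.27, adjusted p = 0.121). H2-K1, a classical heavy chain, was at 277, 183, 327 and 241 FPKM at day 7 and 94.6, 81.8, 123 and 196 FPKM at day 0 (adjusted p = 0.186). The proteasome activators Psme1 and Psme2, which interferon gamma raises, changed by 1.26 and 1.12 (adjusted p = 0.121 and 0.127). None of 16 class II and costimulation genes passed, with a median of -0.14 (-0.32 without day 0 replicate 1), and none of 16 complement genes, with a median of 0.26 that turned to -0.07 without that library.

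Further rises fell outside these groups. Cd72, a surface receptor known from B cells, was at 88.5, 54.4, 81.4 and 18.6 FPKM at day 7 and 7.01, 2.76, 0.812 and 14.8 FPKM at day 0 and rose by 3.29 ± 0.62 (limma, adjusted p = 0.0345), but 54.3% of its windows occur in the overlapping gene Tesk1. Cstb, a cytosolic inhibitor of cathepsins, was at 343, 246, 484 and 687 FPKM at day 7 and 89.8, 133, 164 and 111 FPKM at day 0, a rise of 1.74 ± 0.26 (adjusted p = 0.0105). Sat1, which acetylates spermidine and spermine, was at 417, 399, 445 and 489 FPKM at day 7 and 98.9, 199, 234 and 261 FPKM at day 0, a rise of 1.22 ± 0.22 (adjusted p = 0.0279). Mt1, a metal-binding metallothionein, was at 321, 232, 140.4 and 327 FPKM at day 7 and 36.5, 127, 91.4 and 65.7 FPKM at day 0, a rise of 1.72 ± 0.35 (adjusted p = 0.0488), and was the one call among 27 iron and antioxidant genes. Hmox1, which breaks down haem, was at 40.9, 14.996, 28.7 and 23.1 FPKM at day 7 and 3.57, 7.75, 0.0882 and 6.23 FPKM at day 0 and did not pass (adjusted p = 0.129). BC028528 rose by 1.97 ± 0.4 (adjusted p = 0.0488), and it overlaps the gene C920021L13Rik, from which reads without strand cannot be told apart. Snrpe, a core protein of splicing particles, was at 139, 104, 52.5 and 124 FPKM at day 7 and 26.2, 20.2, 52.7 and 16.2 FPKM at day 0 (rise of 1.88 ± 0.38, adjusted p = 0.0488), and day 7 replicate 3 lay just under the highest day 0 value. Its retrocopy Snrpert rose by 1.93 ± 0.39 and shares reads with it. Rbm3, a cold-inducible RNA-binding protein, narrowly missed the threshold (change 1.2, adjusted p = 0.051), while 3 of its copies, Rbm3-ps, Gm48583 and Gm10156, passed with 1.23, 1.19 and 1.14 (adjusted p = 0.0243, 0.0255 and 0.0293). In all, 17 of the 60 called genes share over 20% of their 50-base windows with another gene.

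Plac8, which is abundant in blood monocytes and plasmacytoid dendritic cells, was at 16.8, 9.16, 6.18 and 9.12 FPKM in day 7 replicates 1 to 4 and 0.7203, 0.185, 0.0243 and 0.0456 FPKM in day 0 replicates 1 to 4. It rose by 3.14 ± 0.58 (limma, adjusted p = 0.031) and was the only called gene of 18 listed monocyte genes, of which 7 were tested. The summed level of that list was 993 to 1695 FPKM at day 7 and 711 to 2284 FPKM at day 0 and overlapped between the days. Lyz2, the lysozyme of many macrophages, made up 949.7 to 1667 FPKM of it at day 7 and 406 to 2236 FPKM at day 0. Ccr2, the defining receptor of monocytes, was at 0.00763, 0.0535, 0.0262 and 0 FPKM at day 7 and 0.0925, 0.0873, 0.0228 and 0 FPKM at day 0. Of the 7 tested monocyte genes, 4 had a positive change. F13a1, which is also on the list of border-associated macrophages, lay below all of day 0 in every day 7 library. It was at 0 to 0.192 FPKM at day 7 and 0.919 to 47.4 FPKM at day 0 (change -2.95, limma, adjusted p = 0.315). The part of monocytes in the Plac8 result was not tested further.

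Most cell cycle genes had a positive change, and 2 passed the test. Of 60 tested cell cycle genes, 2 rose, 47 had a positive change and 8 had all day 7 libraries above day 0, with a median of 0.8 (0.85 without day 0 replicate 1). In 1 member all day 7 libraries lay below day 0. Over all tested genes the shares above and below were 2.51% and 2.5%. Ccnb2, a cyclin of the entry into mitosis, was at 12.8, 8.64, 8.41 and 86.1 FPKM at day 7 and 0, 0.193, 0 and 0 FPKM at day 0, which was a rise of 4.12 ± 0.8 (limma, adjusted p = 0.0405). Birc5, which encodes survivin, was at 6.97, 2.55, 20.3 and 22.03 FPKM at day 7 and 0.4596, 0, 0.0227 and 0 FPKM at day 0, a rise of 3.3 ± 0.67 (adjusted p = 0.0488). The levels differed widely among the 4 day 7 libraries, and the calls were lost in 8 (Ccnb2) and 7 (Birc5) of the 8 fits with one library left out. Tyms, which makes thymidylate for DNA synthesis, was at 2.64, 2.11, 6.05 and 8.23 FPKM at day 7 and 1.69, 0.0484, 0.0127 and 0 FPKM at day 0 (adjusted p = 0.153). Stmn1, a regulator of microtubules in dividing cells, was at 70.3, 40.7, 83.97 and 129 FPKM at day 7 and 26.3, 13.8, 49.9 and 36.8 FPKM at day 0 (adjusted p = 0.233).

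No homeostatic gene passed the test. Of 37 tested genes of that list, 10 had a positive change and 3 had all day 7 libraries below day 0, and the median was -0.74 (-0.75 without day 0 replicate 1), with -0.13 within batch A and -1.01 within batch B. Adgrg1, an adhesion receptor that marks yolk-sac-derived microglia, was at 19.3, 8.6004, 7.05 and 4.92 FPKM at day 7 and 33.7, 31.9, 75.03 and 80.3 FPKM at day 0, with no overlap, and just missed the threshold (change -2.39, adjusted p = 0.0548). Fscn1, an actin-bundling protein, was at 7.25, 2.06, 13.8 and 0.531 FPKM at day 7 and 17.5, 28.5, 45.6 and 39.9 FPKM at day 0, also without overlap (change -2.71, adjusted p = 0.0697). Tmem119 was at 108, 42.5, 250.4 and 122 FPKM at day 7 and 139.5, 233, 462 and 636 FPKM at day 0 (change -1.51, adjusted p = 0.18). Cx3cr1, the fractalkine receptor, was at 149, 113, 144 and 166 FPKM at day 7 and 137, 226, 409 and 391 FPKM at day 0 (change -0.9, adjusted p = 0.188). In these genes day 0 replicate 1 had the lowest or second lowest day 0 value. P2ry12, the ADP receptor that guides microglial processes, was at 685, 459, 309 and 150.1 FPKM at day 7 and 254, 700.3, 1223 and 1155 FPKM at day 0, with a change of 0.41 within batch A and -2.46 within batch B (adjusted p over both batches 0.419). Cst3, the secreted cystatin C, was at 9387, 9280.2, 10693 and 16537 FPKM at day 7 and 9133, 29522, 40979.6 and 36938 FPKM at day 0, where replicate 1 lay below all of day 7 but none of the others did (adjusted p = 0.194). Aif1, the gene whose promoter drives the sort marker, was at 529, 376, 754 and 961 FPKM at day 7 and 130.03, 357, 589.7 and 464 FPKM at day 0 (adjusted p = 0.265). Among 17 genes of TGF-beta signalling, the pathway that keeps the homeostatic state, none passed and 5 had a positive change, with a median of -0.89 (-0.68 without day 0 replicate 1).

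The 20 genes that fell were mostly of low level, and of all the lists only that of border-associated macrophages held one of them. Their day 7 libraries lay below all day 0 libraries in every case. Cend1, which promotes the exit of neuronal precursors from the cell cycle, was at 0, 0.0582, 0 and 0.0286 FPKM in day 7 replicates 1 to 4 and 5.58, 28.002, 23.2 and 18.9 FPKM in day 0 replicates 1 to 4, a change of -4.09 ± 0.63 (limma, adjusted p = 0.013). Zdhhc14, a palmitoyltransferase, was at 0.0335, 0.0336, 0 and 0 FPKM at day 7 and 5.42, 7.22, 26.5 and 12.04 FPKM at day 0, a change of -3.53 ± 0.53 (adjusted p = 0.0105). These were the only falls that held without any one of the 8 libraries. Ctu1, which thiolates transfer RNA, was listed at 0 throughout day 7, against 13.9, 10.5, 9.27 and 17.6 FPKM at day 0 (adjusted p = 0.0243). Lzts2, a leucine zipper protein, was likewise listed at 0 at day 7 and was at 3.34, 2.44, 8.54 and 6.69 FPKM at day 0 (adjusted p = 0.0488).

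**Figure D4:**
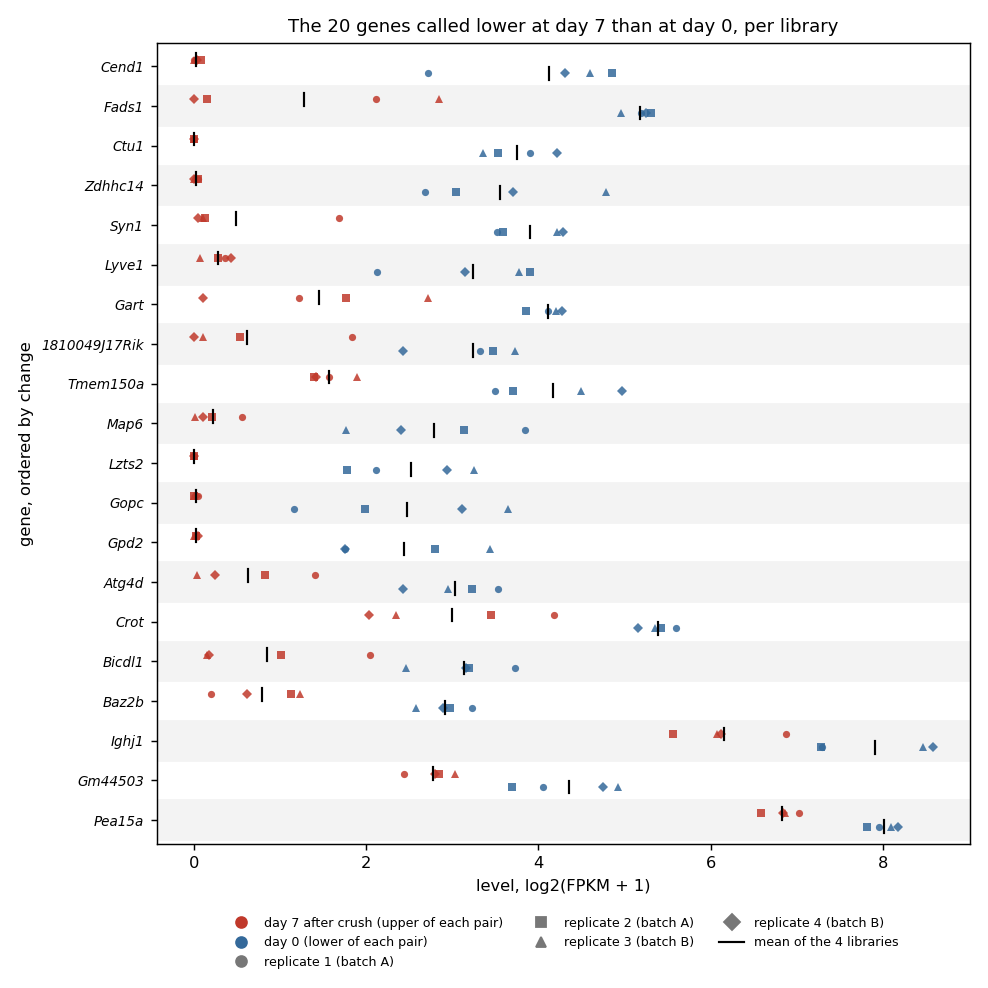
Levels (horizontal axis, log2(FPKM + 1)) of the 20 genes called lower at day 7, in order of their change, for each library. Red symbols above the middle of a row are day 7 and blue symbols below it day 0, shapes are replicates and black bars the mean of 4 libraries, and the day 7 values of most genes lie below 2 while Pea15a and Ighj1 stay above 5 in every library.

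Fads1, Crot, Gart and Gpd2 encode metabolic enzymes. Fads1, the delta-5 desaturase of long fatty acids, was at 3.32, 0.107, 6.19 and 0 FPKM at day 7 and 35.4, 38.5, 30.1 and 37.02 FPKM at day 0, a change of -3.9 ± 0.67 (limma, adjusted p = 0.0264). The day 0 values spanned a narrow range, and the day 7 values were lower in every library. Crot, a carnitine acyltransferase of peroxisomes, was at 17.1, 9.91, 4.0995 and 3.09 FPKM at day 7 and 47.3, 42.04, 39.98 and 34.6 FPKM at day 0 (change -2.38, adjusted p = 0.0293). Gart, an enzyme of purine synthesis, was at 1.32, 2.41, 5.56 and 0.0789 FPKM at day 7 and 16.3, 13.5, 17.5 and 18.3 FPKM at day 0 (change -2.66, adjusted p = 0.0488). Gpd2, the mitochondrial glycerol-3-phosphate dehydrogenase, was at 0.0157, 0.0158, 0.002702 and 0.030997 FPKM at day 7 and 2.37, 5.95, 9.83 and 2.39 FPKM at day 0 (change -2.41, adjusted p = 0.0279). The lists of glycolysis and lipid handling held no call: of 24 glycolytic genes none passed and the median was -0.46 (-0.27 without day 0 replicate 1), and of 38 genes of lipid handling none passed and the median was -0.19 (-0.01 without day 0 replicate 1). Of the glycolytic genes, the glucose transporter Slc2a1 was at 8.69, 23.2, 2.34 and 0.897 FPKM at day 7 and 154, 54.8, 10.3 and 17.7 FPKM at day 0 (adjusted p = 0.229), and Aldoc at 90.02, 66.6, 35.2 and 50.5 FPKM and 255, 152, 93.9 and 62.1 FPKM in the same order (adjusted p = 0.25). Both are also used by other retinal cells, and both were highest in day 0 replicate 1. Of 67 nuclear genes of oxidative phosphorylation, 57 had a positive change and none passed, with a median of 0.47 (0.44 without day 0 replicate 1). In that list Uqcrb, of complex III, was at 462, 403, 209.6 and 384 FPKM at day 7 and 216, 239.8, 137 and 107 FPKM at day 0 (adjusted p = 0.11), and Atp5j, of the ATP synthase, at 137, 114, 103 and 139 FPKM and 72.2, 83.6, 63.5 and 84.5 FPKM (adjusted p = 0.168).

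Syn1, which coats synaptic vesicles, and Map6, which stabilises microtubules, are known from neurons. Syn1 was at 2.204, 0.09401, 0.0751 and 0.0308 FPKM at day 7 and 10.5, 11.04, 17.6 and 18.5 FPKM at day 0 (change -3.41, limma, adjusted p = 0.0449). Map6 was at 0.473, 0.158, 0.00773 and 0.0776 FPKM at day 7 and 13.3, 7.7999, 2.41 and 4.296 FPKM at day 0 (change -2.57, adjusted p = 0.0369). The summed level of the retinal ganglion cell list was 3.05 to 26.1 FPKM at day 7 and 2.66 to 75.7 FPKM at day 0, and that of the amacrine and horizontal cell list was 4.35 to 17.3 FPKM and 1.66 to 35.9 FPKM, so both overlapped between the days. Day 0 replicate 3 had the highest of the 8 sums for both lists, and day 0 replicate 4 the lowest. The bipolar cell sums of these 2 libraries, 129.6 and 116 FPKM, were the lowest of the 8. With the bipolar and Mueller glia levels as covariates, 19 genes were called, 16 of them among the 60. The part of other cells in the falls of Syn1, Map6 and the other genes was not tested.

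Lyve1, a hyaluronan receptor of lymphatic vessels and of macrophages at tissue borders, was at 0.283, 0.212, 0.0485 and 0.348 FPKM at day 7 and 3.36, 13.9, 12.7 and 7.89 FPKM at day 0, a change of -2.95 ± 0.53 (limma, adjusted p = 0.0293). It was the only call among 9 tested of 16 listed genes of border-associated macrophages. The summed level of that list overlapped, at 23.05 to 109 FPKM at day 7 and 46.8 to 259 FPKM at day 0. F13a1, a coagulation factor of the same cells, was at 0, 0.192, 0 and 0.105 FPKM at day 7 and 7.46, 0.919, 5.01 and 47.4 FPKM at day 0 (adjusted p = 0.315), while Siglec1, a sialic acid receptor that interferons also induce, was at 1.34, 2.1998, 5.38 and 15.4 FPKM at day 7 and 1.05, 0.0275, 0 and 0 FPKM at day 0 (adjusted p = 0.276). Cd163, Clec10a and Cd209a were at or under 0.333 FPKM in all 8 libraries, but other members of the list were present. Pf4 was at 12.2 to 79.3 FPKM at day 7 and 16.1 to 172 FPKM at day 0, and Mrc1 at 0.0162 to 4.84 FPKM and 0 to 10.5 FPKM. The part of border-associated macrophages in the Lyve1 result was not tested.

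Among the remaining falls, Pea15a and Ighj1 had the highest levels. Pea15a, a phosphoprotein with a death effector domain that is abundant in astrocytes, was at 129.5, 94.8, 115 and 114 FPKM at day 7 and 246, 224, 272 and 288 FPKM at day 0, a change of -1.18 ± 0.21 (limma, adjusted p = 0.0293). The summed level of the Mueller glia and astrocyte list was 2113 to 3709.9 FPKM and 2352 to 4274 FPKM. Apoe alone made up 1880 to 2905 FPKM of it at day 7 and 1850 to 3657 FPKM at day 0. Of 13 tested members of that list none was called and 5 had a positive change. Glul was at 47.6 to 79.0 FPKM at day 7 and 51.9 to 322 FPKM at day 0, and Gfap at 0.144 to 12.1 FPKM and 0 to 0.0699 FPKM. The part of glial RNA in the Pea15a result was not tested. Ighj1, a joining segment of the immunoglobulin heavy chain with a length of 53 bases in the annotation, was at 116, 46.3, 66.1 and 68.5 FPKM at day 7 and 156, 155, 352 and 384 FPKM at day 0, a change of -1.75 ± 0.32 (adjusted p = 0.0293), and day 7 was also lower than day 2 by a change of -2.02 (adjusted p = 0.0282). Tmem150a, a membrane protein, was at 1.97, 1.64, 2.72 and 1.67 FPKM at day 7 and 10.3, 12.1, 21.6 and 30.4 FPKM at day 0 (change -2.6, adjusted p = 0.0369) and was lower at day 7 than at day 4 as well (-2.39, adjusted p = 0.0274). Its difference from day 4 lost the call after rescaling of the libraries by median-of-ratios (limma, adjusted p = 0.0964). The others were Baz2b, a bromodomain protein (0.146 to 1.35 FPKM at day 7 and 4.97 to 8.38 FPKM at day 0), Gopc, a Golgi scaffold protein (0 to 0.0376 and 1.24 to 11.5 FPKM), Atg4d, a protease of autophagy (0.0244 to 1.65 and 4.37 to 10.6 FPKM), and Bicdl1, a dynein adaptor (0.115 to 3.12 and 4.52 to 12.3 FPKM). The gene models Gm44503 and 1810049J17Rik, with 97.8% and 97.1% of their windows in Ccpg1 and Golph3, changed by -1.58 and -2.62.

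Most other lists held no call. Of 44 lysosomal genes Cd63 was the only rise, with a median of 0.15 (0.17 without day 0 replicate 1). The median change was 0.51 over 31 proteasome genes, 0.21 over 79 cytosolic ribosomal protein genes, -0.22 over 30 genes of NF-kB and its targets, -0.47 over 25 genes of dead-cell uptake and -0.24 over 25 microglial transcription factors. Without day 0 replicate 1 these medians were 0.46, 0.01, 0.05, -0.44 and -0.18 in that order, so the sign of the NF-kB list turned and the ribosomal median was near 0. The 30 immediate early genes, which can move with the dissociation of tissue, had a median of 0.31 (0.84 without day 0 replicate 1), with -0.66 within batch A and 1.0 within batch B, so the batches had opposite signs. Of the genes of blood and vessel cells, 2 of 13 neutrophil, 2 of 20 lymphocyte, 3 of 16 endothelial and pericyte and 0 of 7 erythrocyte genes passed the filter on low values, and none was called. Their RNA was nonetheless in some libraries. The summed level of the endothelial and pericyte list was 10.997, 35.6, 0.949 and 7.28 FPKM in day 7 replicates 1 to 4 and 632, 198, 12.1 and 0.27 FPKM in day 0 replicates 1 to 4. That of the erythrocyte list was 0.0726 to 4.53 FPKM at day 7 and 1.13 to 418 FPKM at day 0, with the highest value in replicate 1. The part of this RNA in the results was not tested.

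The genes of the title of the series did not pass at day 7. Gpr84, a receptor for medium-chain fatty acids, was at 17.4, 39.5, 104 and 60.8 FPKM in day 7 replicates 1 to 4 and 8.61, 24.1, 24.3 and 51.6 FPKM in day 0 replicates 1 to 4. Il1a was at 80.9, 77.5, 103 and 32.7 FPKM at day 7 and 7.13, 0, 0.156 and 48.6 FPKM at day 0, and Tnf at 8.43, 2.27, 25.2 and 0 FPKM and 0.0636, 0.05999, 0 and 0 FPKM. The days overlapped in all 3 genes, and the adjusted p were 0.379 for Gpr84, 0.194 for Il1a and 0.278 for Tnf (limma). Rock1 and Rock2, kinases that Rhoa activates, lay below all of day 0 in all 4 day 7 libraries, at 1.55, 3.25, 3.34 and 2.704 FPKM against 5.499, 4.83, 7.798 and 11.3 FPKM and at 1.89, 1.52, 0.0407 and 0.186 FPKM against 6.47, 4.03, 12.7 and 5.89 FPKM (adjusted p = 0.296 and 0.202). Rhoa was at 50.8, 34.05, 79.9 and 62.5 FPKM at day 7 and 36.2, 62.5, 69.5 and 76.8 FPKM at day 0 (adjusted p = 0.888).

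Day 7 was also set against the earlier days after the crush, where the mice were 13 weeks old, so age moves with day here too. The titles of day 2 replicates 3 and 4 carry the letter F where those of all other libraries carry M. In batch B this letter therefore cannot be told apart from day 2, and these libraries are also part of the fit of all 16. The test of day 7 against day 4 called 241 genes (1.63%), 19 higher and 222 lower at day 7, and that of day 7 against day 2 called 14 (0.0946%), 7 higher and 7 lower. Of the 60 genes called against day 0, 6 differed from day 4: Cxcl13, Ms4a4c and Sat1 were higher at day 7 than at day 4, and Ccl12, Tmem150a and 1810049J17Rik were lower. Over all genes the median difference of day 7 from day 4 was -0.25, and it was 0.05 after rescaling by median-of-ratios, with 31 genes called higher and 40 lower. Of these 6 genes, Cxcl13, Ms4a4c and Sat1 kept their call after rescaling and Ccl12, Tmem150a and 1810049J17Rik lost it. With the bipolar and Mueller glia levels as covariates no gene was called against day 4 by limma, with 1394 under an unadjusted p of 0.05, and 1 was called against day 2. Sat1 was at 167, 193, 261 and 234 FPKM in day 4 replicates 1 to 4 and exceeded them at day 7 by 1.05 (limma, adjusted p = 0.0274). The changes at day 4 and day 7 share the day 0 libraries and so are not independent. Of the 40 genes higher at day 7, 32 were also called higher at day 4 against day 0, and of the 20 lower genes 12 were also called lower. The share of all tested genes called at day 4 against day 0 is not given here, and those calls were not rescaled. These counts therefore cannot be weighed against a background. The Ccl4 change was 4.69 at day 4 and 3.76 at day 7, that of Slfn2 4.73 and 5.21, that of Ifi27l2a 1.79 and 3.64, and that of Cend1 -4.12 and -4.09. Against day 2, Cxcl13, Usp18, Clec7a, Cd63 and Cd63-ps were higher at day 7 and Ighj1 was lower. For the other 54 of the 60 genes the difference from day 4 did not pass the test, which does not show that the 2 days were alike.

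**Figure D5:**
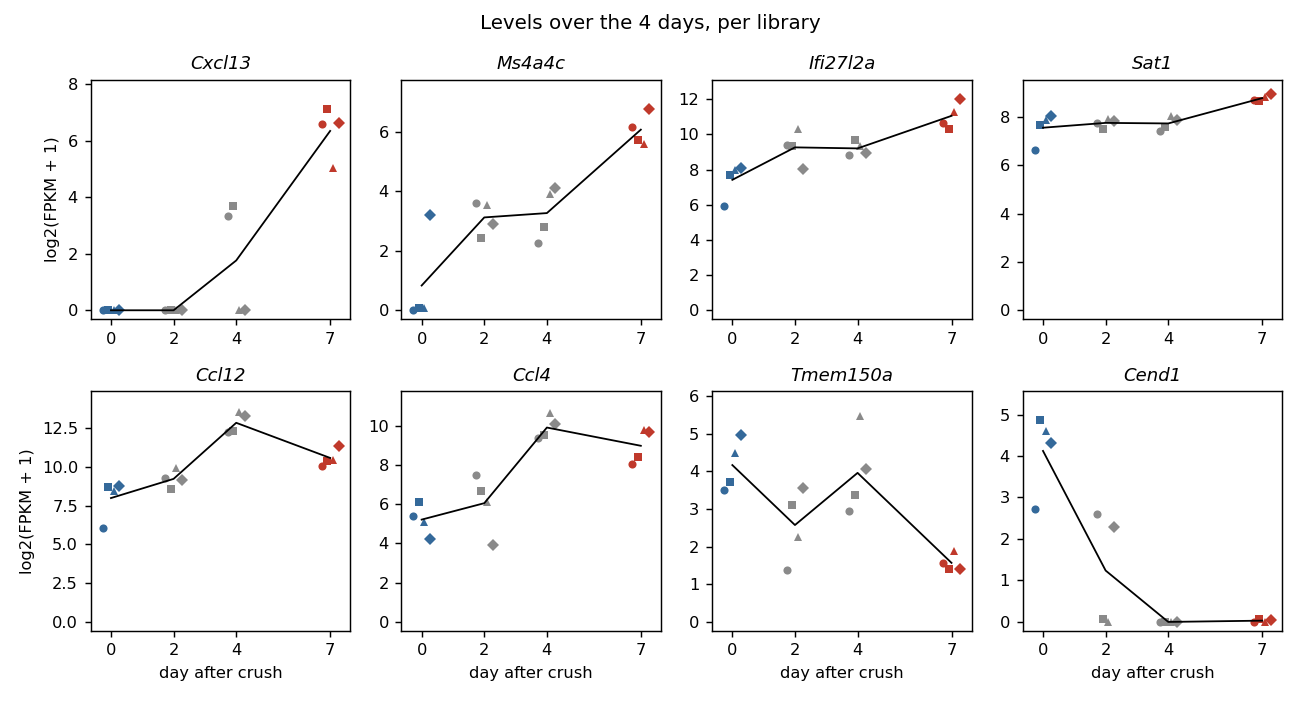
Levels (vertical axis, log2(FPKM + 1)) of 8 called genes at days 0, 2, 4 and 7 (horizontal axis), with a symbol for each library and a line through the means. Day 7 is red and day 0 blue; Cxcl13, Ms4a4c, Ifi27l2a and Sat1 are highest at day 7, Ccl12 and Ccl4 at day 4, and Cend1 lies near 0 at days 4 and 7.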

How the data were processed

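Microglia of Iba1-EGFP mice were sorted from retina at days 0, 2, 4 and 7 of optic nerve crush, with 4 libraries a day, and RNA was sequenced in bulk. Reads were aligned with STAR 2.7.2b and counted with featureCounts 1.6.1 with the build GRCm38.p6 (mm10), as the submitters' processing notes list them. The authors deposited one table of FPKM for 55385 genes with gene lengths. How multiply mapped reads and overlapping genes were treated is not stated, and the library kit named in the labels does not mark strand. The 37 mitochondrial genes are listed at 0 in every library. FPKM times length gives values in steps of 0.01 read (tolerance 0.02 steps), from which 8647276 to 15708302 reads a library were recovered. Values of genes with few reads are the least precise, and 1 read is worth more FPKM in a shorter gene.

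From the FPKM, log2(FPKM + 1) of the 14795 genes at 1 FPKM or more in 4 or more libraries was fitted with limma 3.58.1 (R 4.3.3) to all 16 libraries, with a mean for each day and the batch, and with a trended eBayes. P-values were adjusted by Benjamini-Hochberg over all tested genes, with a threshold of 0.05. The fit was tested on simulated data. A single value per library was compared by a two-sided exact permutation test. Shared sequence is the percent of 50-base windows of a gene that occur in another gene. Promoters and annotation are from RefSeq and from the reference of the same build. Alternatives were the pseudocount, the filter, the batch term, the replicate number, rescaling, weights, voom on the recovered reads, covariates for other retinal cells, and leaving out each day 7 or day 0 library.

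The comparison, the gene lists and the naming rule were chosen with earlier results of these data known. Named were the genes of the title, the 15 largest rises and falls whose higher group averaged 5 FPKM or more, without overlap, the 6 highest genes of each day among those called, up to 6 genes by p of each list, and family members or defining markers. The gene models, the copies and the genes that missed the threshold beside a called relative were chosen after their values were seen. A few measured genes and 1 gene list are not reported here.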

Additional observations from a re-analysis of the deposited data

Results flagged for a closer look

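Among 212 groups of 4 libraries examined for the named genes, 16 had a highest or lowest library whose gap to the next exceeded the 95% critical value of Dixon's test relative to the range of the group, and chance alone gives about 1 in 20 groups. At day 7, replicate 1 was apart as the lowest for Fcgr1 (77.6 FPKM) and the highest for Syn1 (2.204 FPKM). Day 7 replicate 3 was the lowest for Snrpert (47.7 FPKM), and replicate 4 was listed at 0 for Lgals3.

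At day 0, replicate 1 was the highest for Ifit1 (11.3 FPKM), Birc5 (0.460 FPKM), Oas3 (0.988 FPKM), Siglec1 (1.05 FPKM) and Tyms (1.69 FPKM) and the lowest for Ccl12 (65.6 FPKM) and Cd52 (78.6 FPKM). Day 0 replicate 2 was the highest for Cxcl10 (17.9 FPKM), Ccnb2 (0.193 FPKM) and Casp4 (4.32 FPKM) and was listed at 0 for Xaf1. Day 0 replicate 4 was the highest for Ms4a4c (8.11 FPKM).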

How the results depend on the processing

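The direction of the called genes was more stable than the number of calls. Against day 0, 60 genes were called, and 38 with a pseudocount of 0.1, 13 with no filter, 2 with the 8 libraries alone, 39 without the batch, 28 with the full title code (10 of the 60), 24 with voom, 19 with bipolar and Mueller covariates, 12 in batch A alone and 162 in batch B alone. Leaving out one day 7 or day 0 library gave 16 to 57. Rescaling by median-of-ratios gave 80 calls.

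Against day 4, 241 genes were called, and 63 with no filter, 104 with the full title code, 71 with median-of-ratios, 158 without the mitochondrial copies, 939 with array weights, 147 with voom, 71 with the rod covariate, 73 and 91 in batches A and B, 147 without a trend, and 0 with the bipolar and Mueller covariates (1394 under an unadjusted p of 0.05, limma). Leaving out one day 7 or day 0 library gave 81 to 256, and no day 4 or day 2 library was left out. Against day 2, 14 were called, and 28 with a pseudocount of 5 or a filter of 5 FPKM, 2 with no filter, 4 without the batch, 2 with the full code, 24 with median-of-ratios, 29 with array weights, 5 with voom, 1 with the bipolar and Mueller covariates, 2 and 72 in batches A and B, and 5 without a trend, with 1 to 18 when one day 7 or day 0 library was left out.

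For the difference between batches, 5 genes were called, and 17 and 1 with pseudocounts of 0.1 and 5, 108 with no filter, 0 with the 8 libraries alone (1117 under an unadjusted p of 0.05, limma), 8 with median-of-ratios, 1 with array weights and 14 without a trend, with 1 to 116 when one library was left out.

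With the replicate number as a block, the calls were 22 against day 0, 152 against day 4 and 9 against day 2. The deviations of same-numbered day 7 and day 0 libraries from the means of their day had correlations of 0.0858, 0.101, 0.0393 and 0.0779. By this measure day 7 replicates 1, 2, 3 and 4 were most like day 0 replicates 1, 1, 4 and 3. Those deviations still hold the batch. With the batch removed as well, the correlations were -0.0174 for replicates 1 and 2 and -0.0119 for replicates 3 and 4. By these values same-numbered libraries did not deviate together within a batch. The replicates of a batch share a single value here, so whether the samples are paired cannot be settled from it.

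Over the 106 named genes, 1824 of 2642 values kept direction and side of the threshold, 776 no longer passed, 40 passed only then and 2 changed sign: the Rhoa change was -0.304 to 0.0555 when one library was left out, positive without day 7 replicate 2, and P2ry12 was at 0.41 in batch A alone. The difference in genes detected per library was -1772 to 571 when one library was left out, positive without day 0 replicate 1. The causes were not tested. Values of 1 FPKM and less rest on few reads.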
